A study of Mus musculus with 30 samples.

Results

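Of the 26253 genes listed for each aorta, 9 were followed here across all 30 libraries: Plcb1, Plcb3, Plcb4, Plcg1, Itpr1, Prkca, Prkcb, Prkcd and Mapk3. They were chosen by name, as the phospholipase C (PLC), inositol trisphosphate (IP3) receptor, protein kinase C (PKC) and extracellular signal-regulated kinase (ERK) genes of an axis whose proteins are known to be more active in aortas with vascular Ehlers-Danlos syndrome (VEDS), and the comparisons ask whether their transcripts differed. All 9 were measured in every library and passed the low-count filter in every comparison.

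In the vessel wall, pressor hormones such as angiotensin II and endothelin bind receptors coupled to Gq, which switches on PLC-beta enzymes at the plasma membrane. PLC cleaves a membrane phosphoinositide into IP3, which opens calcium channels of the endoplasmic reticulum, and diacylglycerol, which activates PKC. PKC and calcium drive contraction of smooth muscle, and PKC also feeds the Ras-ERK cascade, whose ERK kinases are switched on by phosphorylation. That step leaves no trace in the amount of the transcript, so transcript levels do not report the activity of the axis.

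The tissue was the descending thoracic aorta of male mice. The sample labels say that its adventitia was pulled off and the study's methods that perivascular fat was removed. VEDS mice carried 1 missense Col3a1 allele and control mice were Col3a1+/+. Of the VEDS libraries, 3 came from mice given hydralazine with bicalutamide (HB), 3 from mice given hydralazine with spironolactone (HS), 6 from mice given hydralazine and 6 from untreated mice, while 6 control libraries came from mice given hydralazine and 6 from untreated mice. Hydralazine, a vasodilator, was given from birth at 32 mg/kg/day, so the HB and HS mice carried it too. Bicalutamide, an androgen receptor antagonist, at 50 mg/kg/day and spironolactone, an antagonist of mineralocorticoid and androgen receptors, at 100 mg/kg/day were added from day 21. HB and HS aortas were taken at day 60, whereas each of the other 4 groups held mice of day 30 and day 60 and the age of a single library is not given. Any difference of HB or HS from those groups therefore cannot be told apart from a difference in age. No label says that the libraries of a group came from separate litters, and p-values measure the spread between these aortas. In the 4 groups of 6, that spread mixes mice of day 30 and day 60, so it is not the spread at 1 age.

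Library totals ran from 5517510 to 8293289 reads assigned to genes. The smooth muscle marker Myh11 lay between 5227 and 10628 CPM, a read count scaled to library size, in every library. Fibroblast transcripts were present too, with a sum over 5 markers of 1695 to 2259 CPM. Transcripts of other tissues were also present at uneven levels. Alb, a liver gene, ran from 47.4 to 10915 CPM, Ucp1, a brown fat gene, from 25.2 to 885 CPM and Myh6, a cardiac gene, from 0.24 to 426 CPM. The last value belonged to control hydralazine replicate 5, while VEDS HS replicate 3 had the highest level of the heat shock gene Hspa1b, at 708 CPM against a median of 68.8 CPM. VEDS HB replicate 2 had a cardiomyocyte marker sum of 508 CPM, against 10.4 and 55.0 CPM in the other HB libraries. Results below were also computed without these 3 libraries, and 0 of the 9 genes were called in any comparison then. The T cell gene Cd3e had a median of 0 CPM, while the B cell gene Cd79a reached 2.13 CPM in control hydralazine replicate 1.

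Per unit of transcript length, Plcb4 and Itpr1 were the most abundant of the 9. Plcb4, a PLC-beta isoform, had a median of 58.1 TPM, which is scaled by transcript length too, with a range of 39.5 to 72.7 TPM, and Itpr1, the type 1 IP3 receptor, had 49.2 TPM with a range of 34.4 to 59.7 TPM. Mapk3, which encodes ERK1, and Prkcd, which encodes PKC-delta, followed at 14.9 TPM each, and Mapk3 exceeded Prkcd in 11 of 30 libraries, so these neighbours could not be ordered. Plcb3, another PLC-beta, had a median of 10.3 TPM, and Plcg1, the PLC-gamma isoform that receptor tyrosine kinases activate, had 8.25 TPM. Plcb1, the remaining PLC-beta of the set, had 7.21 TPM and was below Plcg1 in 21 of 30 libraries. Prkca, a conventional PKC, had 3.15 TPM and Prkcb, the conventional PKC best known from leukocytes, had 0.69 TPM. Plcb4 was above Itpr1 in 29 libraries, Plcb3 above Plcg1 in 28, and each of the 4 remaining steps of the order held in all 30.

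Within their families, the 9 genes included the most abundant PLC-beta, PLC-gamma, IP3 receptor and PKC isoform by median TPM. Plcb4 made up a median of 76.7% of PLC-beta TPM, ranging from 68.6% to 82.7%, with Plcb3 at 13.7% and Plcb1 at 9.62%. Plcb2, the haematopoietic PLC-beta, was at 0.07 TPM. Itpr1 supplied 89.1% of IP3 receptor TPM, against 8.52% from Itpr2 and 2.40% from Itpr3. Plcg1 supplied 81.2% of PLC-gamma TPM. Among 9 PKC genes, Prkcd held a median of 47.3%, followed by the atypical isoform Prkci at 26.1%, which is no member of the set, and by Prkca at 9.85% and Prkcb at 2.21%.

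**Figure D1:**
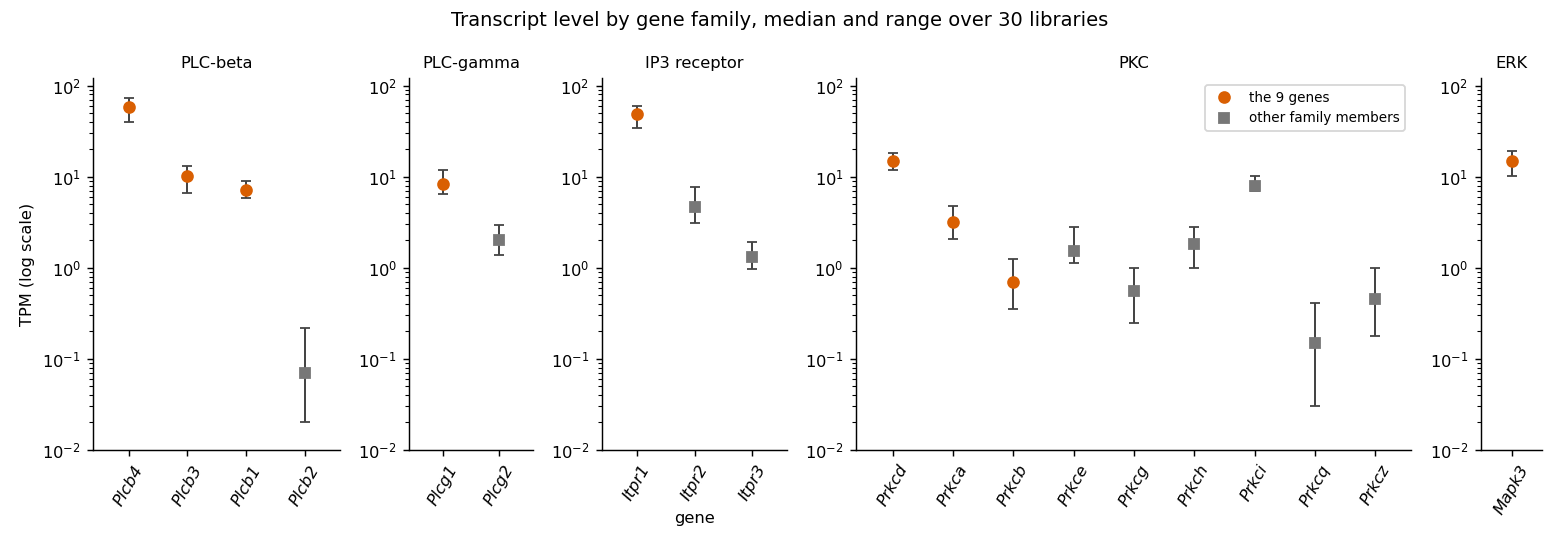
Transcript level in TPM (log axis) of the 9 genes (orange circles) and other members of the PLC, IP3 receptor and PKC families (grey squares). Symbols are medians and bars run from the lowest to the highest of 30 libraries, with Plcb4 at 58.1 TPM and Itpr1 at 49.2 TPM far above their relatives.

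RefSeq promoter windows of 300 bases, reaching from 250 bases before a transcription start to 50 after it, were available for 7 of the 9 genes (9 windows, GRCm38.p6). They are shown for the abundant Plcb4, which has 2 start sites, and for Plcb3, the member whose HS and HB levels, given later, did not overlap. Because the antagonists act on steroid receptors, the hexamer AGAACA, which occurs in pairs in androgen and mineralocorticoid response elements, was searched on either strand, together with the AP-1 site TGANTCA, bound by Fos and Jun proteins, and the CArG box and MEF2 site of muscle promoters. Capitals mark every match.
Plcb4, upstream start, chr2:135659297-135659596, plus strand: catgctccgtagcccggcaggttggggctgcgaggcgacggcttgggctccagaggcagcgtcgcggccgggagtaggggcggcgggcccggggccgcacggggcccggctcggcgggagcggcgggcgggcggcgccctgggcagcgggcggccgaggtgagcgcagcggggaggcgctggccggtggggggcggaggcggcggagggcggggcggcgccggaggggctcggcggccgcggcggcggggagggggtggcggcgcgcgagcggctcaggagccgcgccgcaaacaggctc
Plcb4, downstream start, chr2:135764588-135764887, plus strand: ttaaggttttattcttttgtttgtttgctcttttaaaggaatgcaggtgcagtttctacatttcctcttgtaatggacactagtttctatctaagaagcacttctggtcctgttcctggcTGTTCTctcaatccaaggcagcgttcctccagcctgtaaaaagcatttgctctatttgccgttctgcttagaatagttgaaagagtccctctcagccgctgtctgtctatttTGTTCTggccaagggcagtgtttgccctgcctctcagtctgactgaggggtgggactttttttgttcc
Plcb3, chr19:6969765-6970064, minus strand: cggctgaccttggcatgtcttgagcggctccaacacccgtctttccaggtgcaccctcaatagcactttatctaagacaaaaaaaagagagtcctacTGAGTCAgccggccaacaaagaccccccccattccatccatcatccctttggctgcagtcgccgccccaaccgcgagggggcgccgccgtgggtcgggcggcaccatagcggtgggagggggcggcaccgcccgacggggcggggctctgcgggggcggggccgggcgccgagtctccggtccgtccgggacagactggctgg

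The upstream Plcb4 window was 84.0% G or C with 50 CpG and held none of the 4 motifs, while the downstream window was 44.3% G or C with 3 CpG and held the hexamer at 130 and 18 bases before the start, both on the opposite strand. The Plcb3 window was 67.0% G or C and held 1 AP-1 match, read on both strands, at 153 bases before the start. The hexamer also occurred in the Prkcb window and in the downstream Prkcd window. Neither a CArG box nor a MEF2 site occurred in any of the 9 windows. Of 32851 promoter windows of that length, 19.0% held the hexamer, 7.81% an AP-1 match, 1.63% a CArG box and 3.19% a MEF2 site. A match is only a stretch of letters, and the gene counts do not say which start was used.

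Across the 30 libraries, Plcb4, Itpr1 and Plcb1 varied together. The log2 levels of Plcb4 and Itpr1 had a Pearson's r of 0.90 and a Spearman's rho of 0.90, Plcb1 had r = 0.78 with each, and with the group means removed these values were 0.92, 0.88 and 0.87. These correlations are descriptions over 30 libraries that share a normalisation, and they were given no test. Prkcd went with them less closely, with r = 0.62 to Itpr1 and 0.49 to Plcb4. Prkca, Prkcb, Plcg1 and Mapk3 had absolute r of at most 0.22 with either Plcb4 or Itpr1. The strongest links of Mapk3 were with Plcb3, at r = 0.48, and Plcg1, at r = 0.47. With group means removed they were 0.12 and 0.35.

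**Figure D2:**
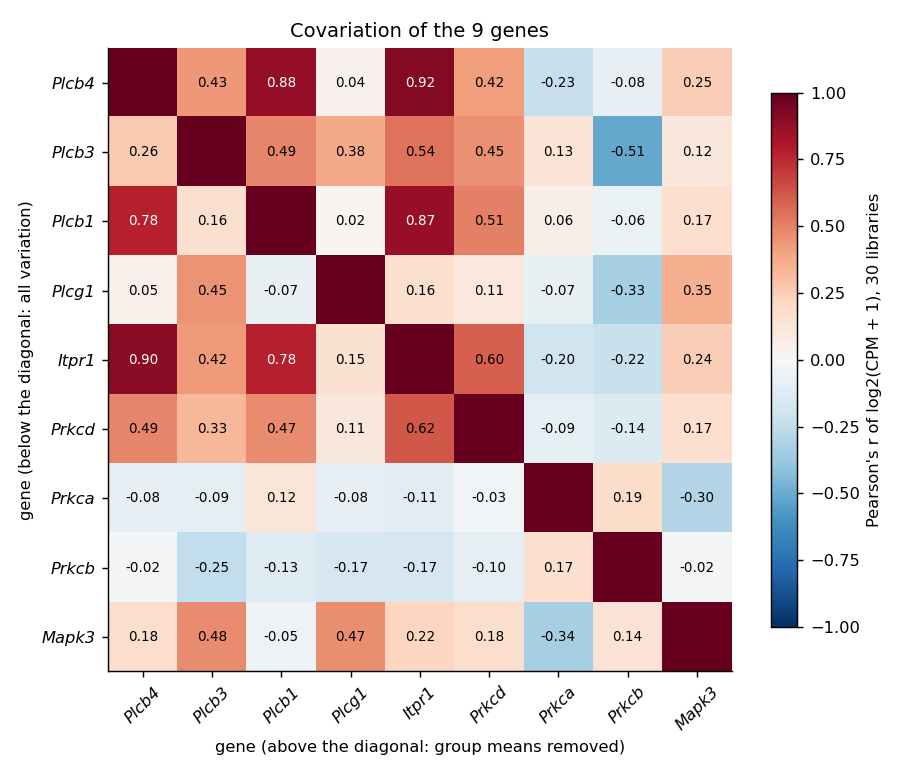
Pearson's r of log2(CPM + 1) for each pair of the 9 genes over 30 libraries, from −1 (blue) to 1 (red), below the diagonal over all variation and above it with group means removed. Plcb4, Itpr1 and Plcb1 form a block with r between 0.78 and 0.92, and Prkca, Prkcb, Plcg1 and Mapk3 stand outside it.

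The same 3 genes varied with the level of smooth muscle markers. The summed level of 7 smooth muscle markers had r = 0.91 with Itpr1, 0.85 with Plcb4, 0.72 with Plcb1, 0.57 with Prkcd and 0.56 with Plcb3, against 0.23 with Mapk3, 0.06 with Plcg1, −0.01 with Prkca and −0.20 with Prkcb. Hepatocyte markers ran the other way, with r = −0.70 for Plcb4 and −0.68 for Itpr1, as did brown adipocyte markers, with r = −0.70 and −0.58. In bulk tissue, fewer smooth muscle cells and less of a transcript per cell cannot be told apart. Age may enter too, because the larger groups mix mice of both ages and removing group means does not remove it. The study reported that contractile transcripts, Myh11 among them, rose between these ages in untreated aortas, while histone transcripts fell. Without an age label for each library, the part of age in these correlations was not tested. Prkcb had its highest r, 0.54, with the 6 macrophage markers. With group means removed, its r was 0.48 with these and 0.50 with the 5 lymphocyte markers. The lymphocyte sum was 12.3 CPM in control hydralazine replicate 1, against a group median of 0.78 CPM. That library also had the highest Prkcb, at 12.0 CPM. All 3 genes most like Prkcb, namely Cybb, Lyz2 and Ctss, are myeloid genes (r = 0.73, 0.71 and 0.68 among 11125 genes compared).

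Of those genes, Synpo2, an actin-binding protein of muscle, was the closest to Plcb4, at r = 0.98 with and without group means, followed by Cped1 and Gcnt2, both at r = 0.96. Itpr1 was closest to Fyco1 and Pkp4, at r = 0.95 each, and Map3k20, at r = 0.94. Plcb1 was closest to Chmp3 (r = 0.90), Msrb3 (r = 0.86) and Sytl5 (r = 0.86). The other end was looked at after the values were seen. The 3 lowest r with Plcb4 were those of P4hb (−0.92), the growth factor gene Igf1 (−0.91) and Ssr2 (−0.90). For Itpr1 they were those of H2bc3 (−0.90), the imprinted growth-related transcript H19 (−0.90) and H2bc18 (−0.89). H2bc3 and H2bc18 are histone genes, and the part of age in these values was not tested. The remaining members had looser neighbours. Plcb3 was closest to Pip5k1c, which makes the lipid that PLC cleaves, at r = 0.79, then to Cep170b and Nomo1, and Plcg1 was closest to Klf13, Foxo3 and Ambra1, with r of 0.79, 0.78 and 0.75. Prkcd was closest to Ehbp1l1, Smarcd3 and Fads3 at r between 0.73 and 0.76, Mapk3 to Chpf2, Numbl and Selenom at r between 0.70 and 0.72, and Prkca to Gdpd5, Dzip3 and Fyb at r of at most 0.64.

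**Figure D3:**
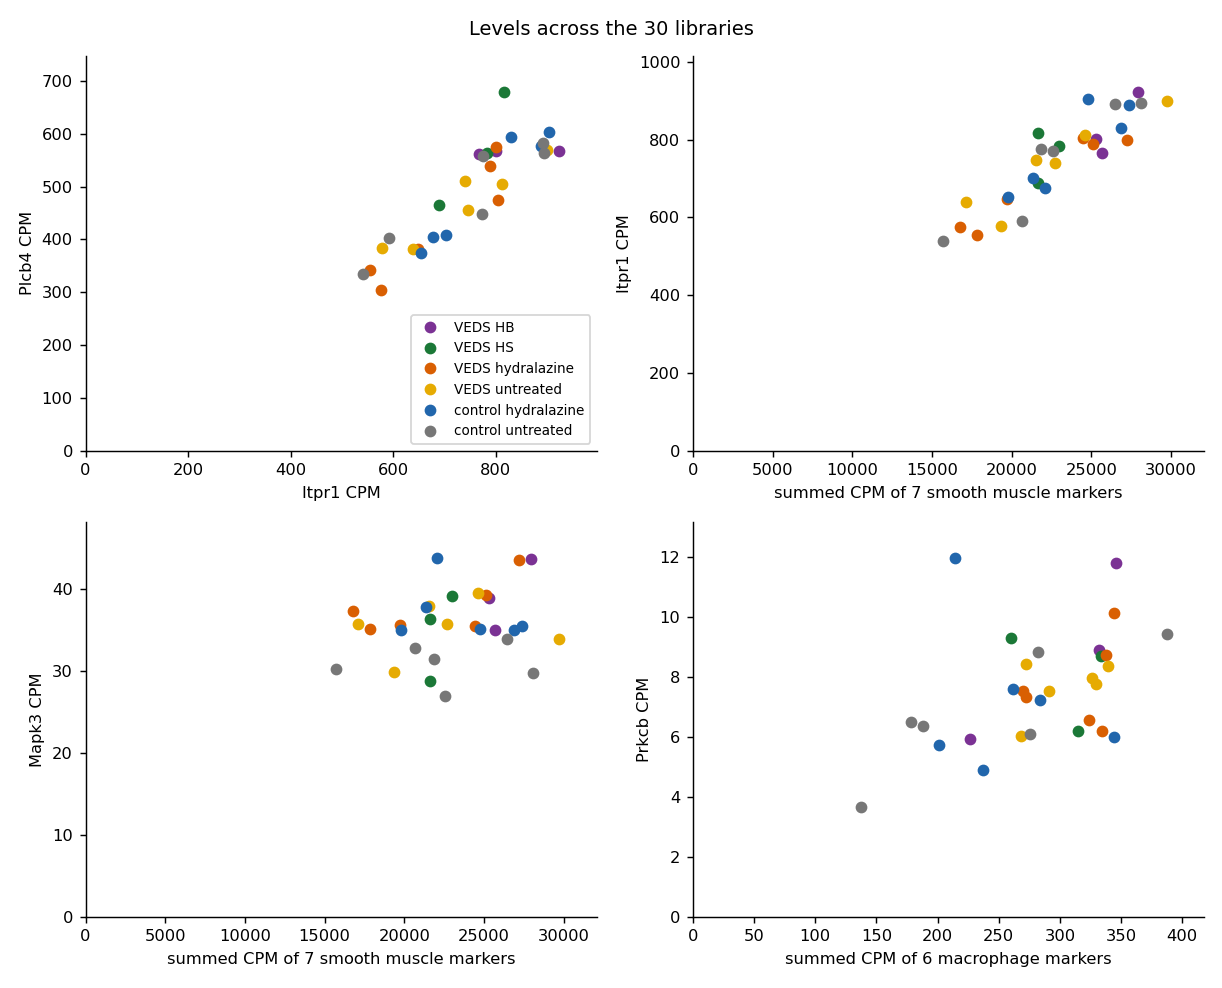
Levels in the 30 libraries, coloured by group: Plcb4 against Itpr1 (CPM), Itpr1 and Mapk3 against the summed CPM of 7 smooth muscle markers, and Prkcb against that of 6 macrophage markers. Itpr1 climbs with the smooth muscle sum (r = 0.91) and Mapk3 does so little (r = 0.23). The groups of 6 libraries mix along the trend, while the smooth muscle sum is 25304 to 27955 CPM in HB and 21634 to 22986 CPM in HS.

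The levels by group follow, in CPM scaled over all libraries. Plcb4 had 567, 568.04 and 562 CPM in VEDS HB aortas and 464, 564 and 679.7 CPM in VEDS HS aortas. Its lowest, median and highest values were 305, 429 and 576 CPM in VEDS hydralazine aortas, 382, 480.2 and 568.4 CPM in VEDS untreated aortas, 375, 493 and 604 CPM in control hydralazine aortas and 335, 503 and 583 CPM in control untreated aortas. The HB values were tight, while those of HS, taken at the same age, had an SD of 107.7 CPM. The HS values included the highest of all 30 libraries, which was VEDS HS replicate 3, named above for Hspa1b. The SDs of the other groups lay between 74.7 and 109.8 CPM. Itpr1 had 923, 801 and 767 CPM in VEDS HB aortas and 689.6, 784 and 817 CPM in VEDS HS aortas. Its lowest, median and highest values were 555, 718 and 803 CPM in VEDS hydralazine, 578, 743 and 899 CPM in VEDS untreated, 653, 766 and 904 CPM in control hydralazine and 541, 773 and 893 CPM in control untreated aortas. All pairs of groups overlapped for Plcb4 and Itpr1.

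Plcb1 averaged 73.0 ± 8.2 CPM in VEDS HB (SD, n = 3), 84.6 ± 8.5 in VEDS HS (n = 3), 75.5 ± 13.7 in VEDS hydralazine, 79.4 ± 13.5 in VEDS untreated, 80.7 ± 14.5 in control hydralazine and 84.4 ± 14.5 in control untreated aortas (n = 6 each). Plcg1 was flatter, with group means between the 59.4 CPM of VEDS HB and the 52.3 CPM of control untreated aortas. Prkcd means lay between the 65.3 CPM of VEDS HS and the 57.7 CPM of VEDS hydralazine aortas. Prkcb was counted with 26 to 73 reads a library and its means lay between the 8.88 ± 2.93 CPM of VEDS HB and the 6.81 ± 2.09 CPM of control untreated aortas. It was the least precise member, with a coefficient of variation of 24.6% over all libraries.

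**Figure D4:**
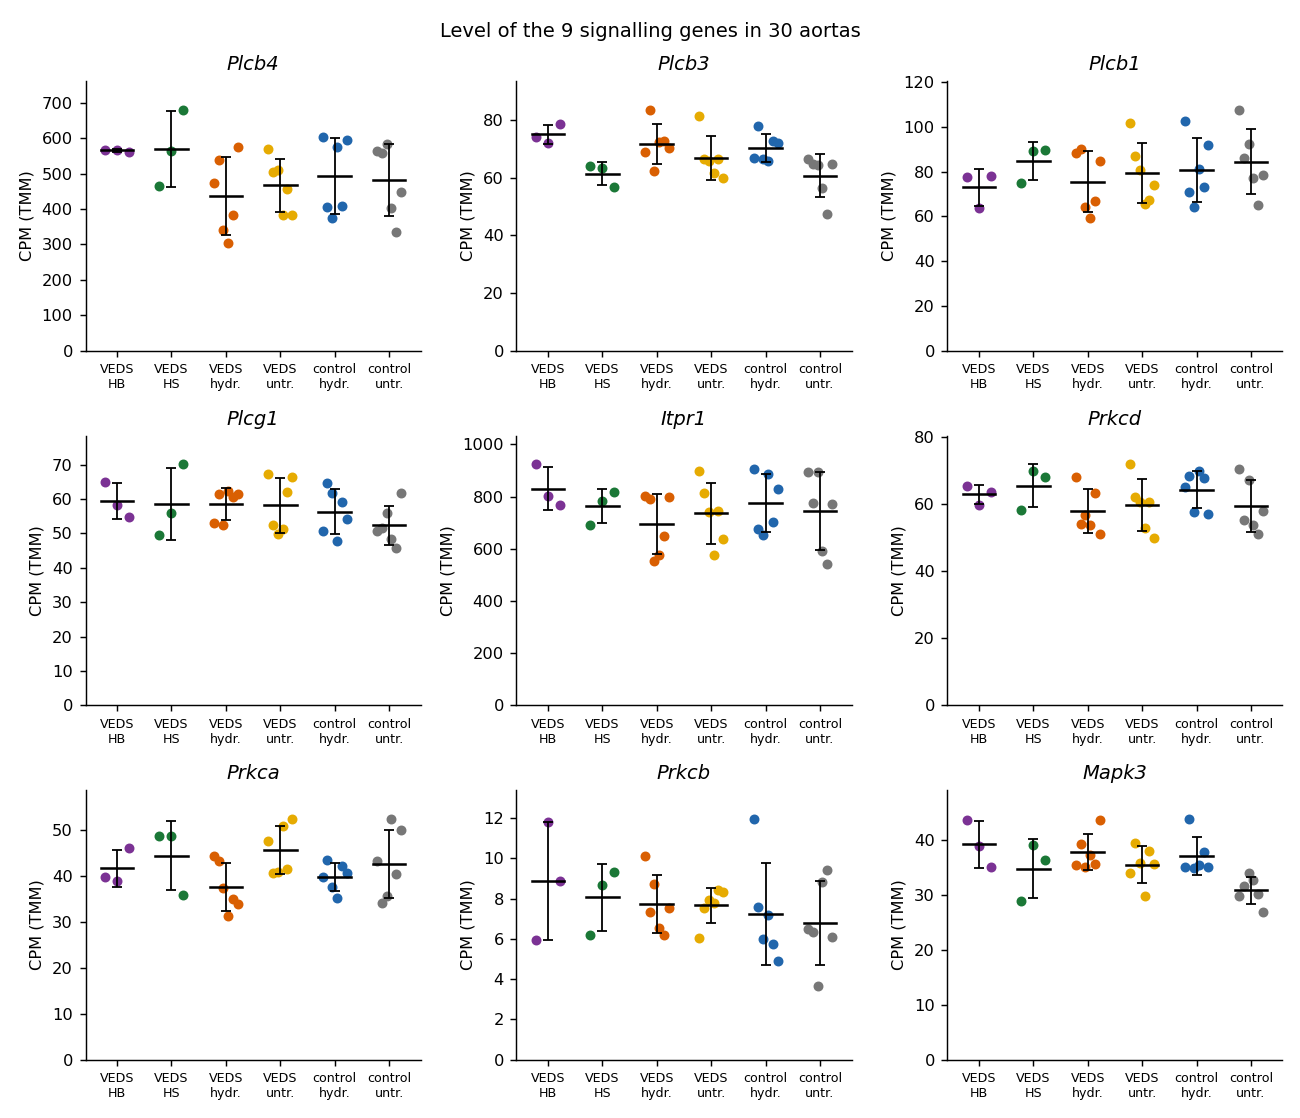
CPM of each of the 9 genes by group, 1 point a library, with the mean (line) and SD (bar) of 3 or 6 libraries, on axes that start at 0. Groups overlap in nearly every panel, and the Plcb4 values of VEDS HS spread as widely as those of the groups of 6.

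The genotype comparison asked whether VEDS aortas differed from controls. In untreated mice none of the 9 genes passed the threshold of edgeR's quasi-likelihood test (adjusted p of 0.05 or less), where 0 of 12976 genes did (0%), and DESeq2 called none of the 9 either. At an unadjusted p under 0.05 there was 1 member, against 3.04% of all genes. That member was Mapk3, which had a lowest, median and highest level of 29.8, 35.7 and 39.5 CPM in VEDS untreated aortas, against 26.9, 30.8 and 33.9 CPM in control untreated aortas. The groups overlapped, and the log2 fold change was 0.20 ± 0.08 (SE; 95% interval 0.03 to 0.37; unadjusted p = 0.0262, adjusted p = 1.00). Of the 9 values 6 were positive, the median was 0.10 and that of all genes was 0.003. Every interval lay between 0.776-fold and 1.51-fold, the upper bound being that of Prkcb.

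Under hydralazine, VEDS aortas again had no member past the threshold in edgeR or DESeq2 (0% of 12966 genes in edgeR), and 0 members had an unadjusted p under 0.05, against 4.64% of all genes. Mapk3 there differed by 0.03 ± 0.07. Plcb4 had the lowest value, at −0.18 ± 0.18, followed by Itpr1 at −0.16 ± 0.12 and Prkcd at −0.15 ± 0.08, and all 3 intervals included 0. Over both treatments, with treatment as a covariate, 0 of 9 were called in either tool, 0% of 13407 genes were called by edgeR and 0 members had an unadjusted p under 0.05, against 3.70% of all genes. The members' median was 0.005 and that of all genes was 0.002. Mapk3 had 0.11 ± 0.06 (unadjusted p = 0.0571, adjusted p = 1.00), Plcb4 −0.11 ± 0.12 and Itpr1 −0.09 ± 0.10. Every interval lay between 0.779-fold and 1.34-fold.

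Hydralazine was next compared with no treatment within each genotype. In VEDS mice no member was called by edgeR or DESeq2 (0% of 13006 genes in edgeR), and 1 member, against 4.53% of all genes, had an unadjusted p under 0.05. Prkca had a lowest, median and highest level of 31.3, 36.1 and 44.2 CPM in VEDS hydralazine aortas, against 40.7, 44.5 and 52.4 CPM in VEDS untreated aortas. Only 2 hydralazine libraries reached into the untreated range, and the log2 fold change was −0.27 ± 0.10 (unadjusted p = 0.0169, adjusted p = 1.00). In controls Prkca had −0.10 ± 0.11, which was −0.031 without control untreated replicate 4 and −0.16 without control untreated replicate 2, and the difference between the genotypes was −0.18 ± 0.15.

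In control mice, Mapk3 levels did not overlap between the groups in CPM. It had 35.0, 35.3 and 43.8 CPM as lowest, median and highest in control hydralazine aortas, against 26.9, 30.8 and 33.9 CPM in control untreated aortas. Such a gap was found for 1 of the 9 members and for 0.353% of 14457 genes with at least 1 CPM in 3 libraries. In TPM the groups overlapped, with a lowest value of 12.8 TPM in control hydralazine and a highest of 12.9 TPM in control untreated aortas. The log2 fold change was 0.27 ± 0.08 (95% interval 0.10 to 0.43; unadjusted p = 0.00367), and with 12951 genes tested the adjusted p was 0.497. Plcb3 had 65.9, 69.4 and 78.1 CPM in control hydralazine, against 47.5, 64.6 and 66.4 CPM in control untreated aortas, a log2 fold change of 0.22 ± 0.08 (unadjusted p = 0.0230, adjusted p = 0.511). These 2 were the members with an unadjusted p under 0.05, where 9.50% of all genes had one, and neither edgeR (0% of genes) nor DESeq2 called a member.

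The interaction term asks whether the hydralazine difference depended on genotype. No member was called (edgeR 0% of 13407 genes, DESeq2 no member) and 0 had an unadjusted p under 0.05, against 3.28% of all genes. All 9 estimates were below 0, with a median of −0.13 against −0.01 for all genes, and each interval included 0. The 7 smooth muscle markers were also all below 0 in this term, with a median of −0.11, as were the 5 white adipocyte markers, with a median of −0.89, while the 4 hepatocyte markers were all above 0, with a median of 1.26, and none was called. Their part in the members' values was not tested. Mapk3 had −0.17 ± 0.11 and Prkca −0.18 ± 0.15. With 1 surrogate variable in the fit, 3 of the 9 estimates were above 0.

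HB and HS were set against hydralazine alone. HB left every member uncalled in edgeR and DESeq2, where edgeR called 2 of 13266 genes (0.0151%), and 0 members had an unadjusted p under 0.05, against 15.5% of all genes. Plcb4 had the largest estimate, 0.36 ± 0.18 (95% interval −0.04 to 0.77; unadjusted p = 0.0715, adjusted p = 0.369), and Itpr1 had 0.25 ± 0.14 (adjusted p = 0.419). The 7 smooth muscle markers were all higher in HB by estimate, with a median of 0.27 and none called, and their summed level ran from 25304 to 27955 CPM in HB, against 16784 to 27212 CPM in VEDS hydralazine aortas. The 4 hepatocyte markers were all lower, with a median of −2.67, a sum of 571 to 770 CPM in HB and of 1692 to 11052 CPM in VEDS hydralazine aortas. The part of these markers in the Plcb4 and Itpr1 values was not tested. With 1 surrogate variable fitted, Plcb4 had 0.02 and Itpr1 0.01.

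HS likewise had no member called in either tool (0% of 13304 genes in edgeR). Plcb4 had 0.38 ± 0.21 (adjusted p = 0.428; 0.24 to 0.51 when 1 library was left out), while the 7 smooth muscle markers had a median of −0.01 and a summed level of 21634 to 22986 CPM in HS aortas. The 4 hepatocyte markers were all lower, with a median of −2.36 and a sum of 155 to 1579 CPM in HS, against 1692 to 11052 CPM in VEDS hydralazine aortas, and the 4 brown adipocyte markers were all lower, with a median of −1.04, none of them called. Their part in the Plcb4 value was not tested. With 1 surrogate variable the Plcb4 value was −0.10 and that of Itpr1, 0.13 ± 0.14 without it, was −0.16. Plcb1 had 0.16 ± 0.15 in the first fit. In single nuclei of VEDS aortas treated without hydralazine, the study reported lower Plcb1 and Plcb4 in endothelial cells under spironolactone and under finerenone. Bulk values do not separate endothelial from smooth muscle cells, so they do not speak to that result. Plcb3 was the member with an unadjusted p under 0.05, against 13.6% of all genes. Its levels were 64.2, 63.3 and 56.8 CPM in VEDS HS aortas, against a lowest, median and highest of 62.4, 71.4 and 83.5 CPM in VEDS hydralazine aortas, a log2 fold change of −0.23 ± 0.09 (unadjusted p = 0.0321, adjusted p = 0.343). Without VEDS HS replicate 3, named above, it was −0.17 ± 0.10.

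The same HB and HS libraries were also set against untreated VEDS aortas, and the members were again uncalled by both tools. edgeR called 54 of 13204 genes for HB (0.409%) and 41 of 13276 for HS (0.309%), and the shares of all genes with an unadjusted p under 0.05 were 16.4% and 11.1%, against 0 members in each. Plcb4 had 0.27 ± 0.13 in HB (adjusted p = 0.329) and 0.27 ± 0.16 in HS (adjusted p = 0.543). The HS value was 0.14 without VEDS HS replicate 3 and 0.41 without VEDS HS replicate 1. In 7 other alternative fits, that with 1 surrogate variable among them, Plcb4 lay between 0.24 and 0.28 in HB. In HS it lay between 0.14 and 0.29. The 7 smooth muscle markers were all higher in HB, with a median of 0.26, while 3 of 7 were higher in HS, with a median of −0.03. Their part in the Plcb4 values was not tested. The medians over members were 0.14 for HB and 0.04 for HS, and those of all genes were −0.02 and −0.01.

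Spironolactone and bicalutamide were compared at their own doses on the same hydralazine background and at the same age, and the doses differ. No member was called (edgeR 0% of 12800 genes, DESeq2 no member). Plcb3 had 64.2, 63.3 and 56.8 CPM in VEDS HS aortas, against 74.3, 72.2 and 78.7 CPM in VEDS HB aortas. The groups did not overlap, as was so for 1 of 9 members and 13.2% of 14457 genes, and the log2 fold change was −0.28 ± 0.09 (95% interval −0.50 to −0.07; unadjusted p = 0.0161, adjusted p = 0.679). Of all genes 6.68% had an unadjusted p under 0.05. Plcb4 differed by 0.01 ± 0.13, with an interval of −0.29 to 0.32, and Plcb1 by 0.22 ± 0.12. Prkcb had the widest interval, from 0.584-fold to 1.42-fold.

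**Figure D5:**
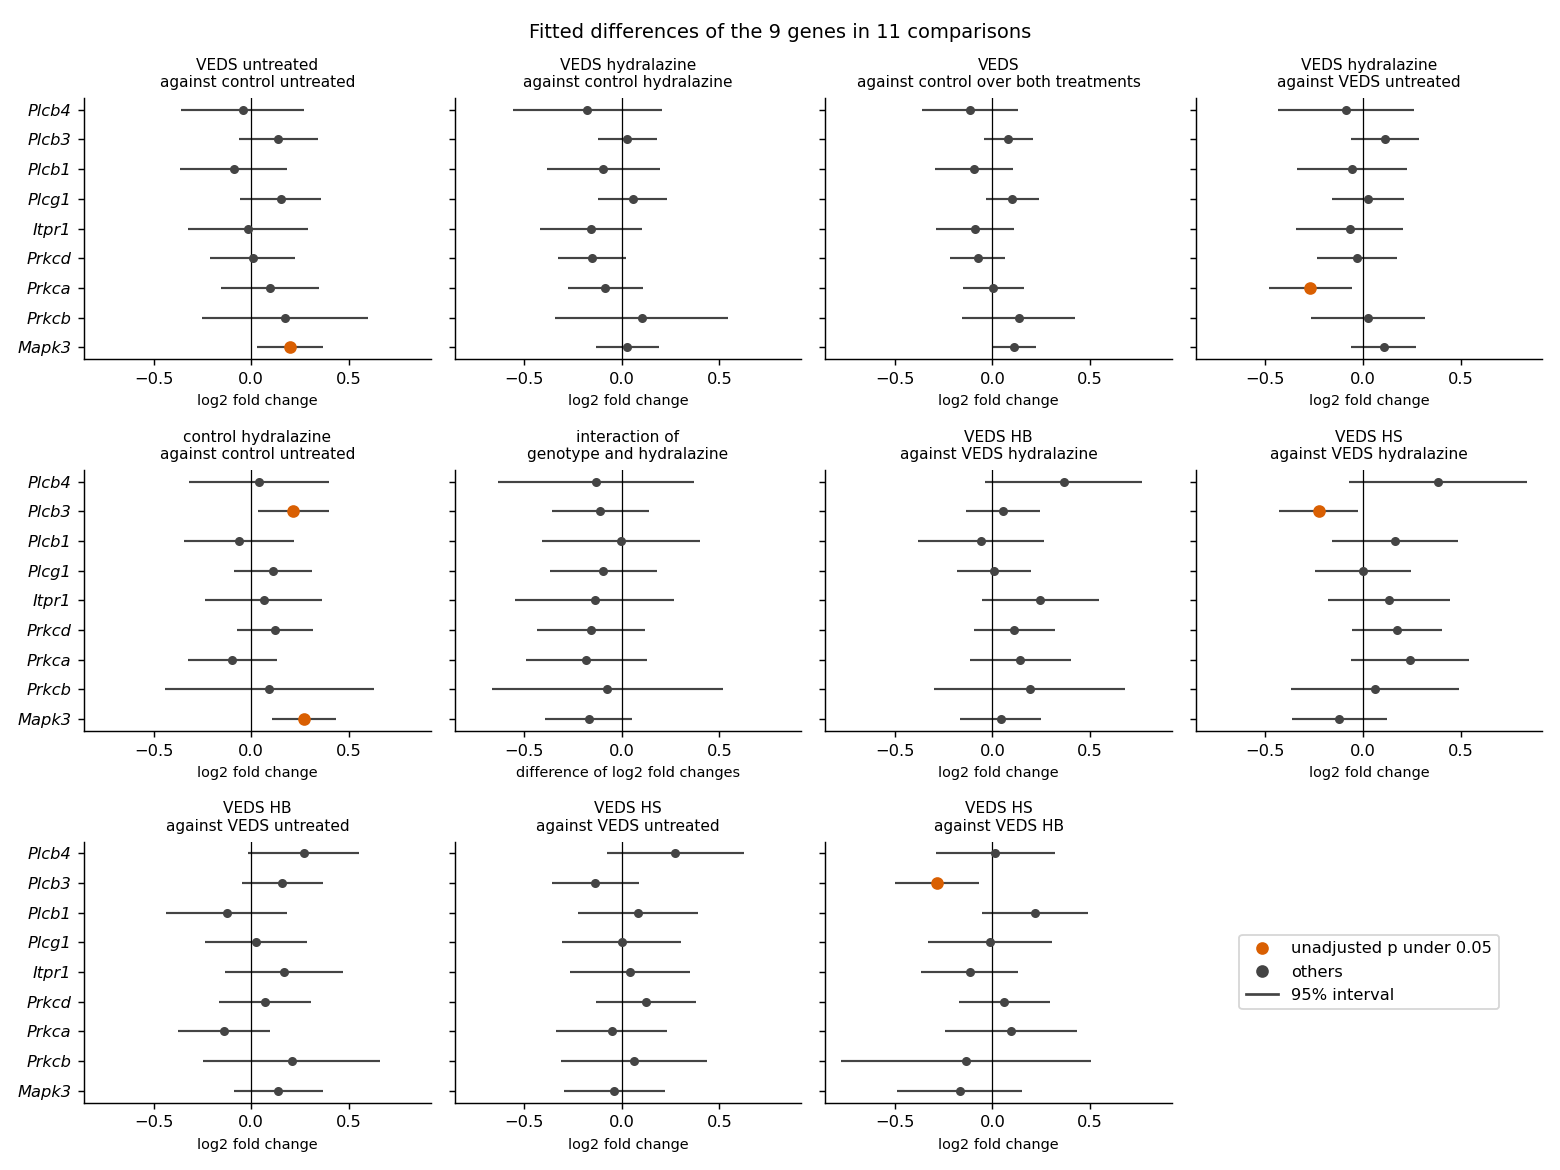
Fitted log2 fold change and 95% interval of the 9 genes in each of 11 comparisons, named group over its comparison group, or the difference of log2 fold changes for the interaction. Orange points are the 6 of 99 values with an unadjusted p under 0.05, of which 0 passed after adjustment over all genes.

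Together the 11 comparisons gave 99 member values, of which 0 were called and 6 had an unadjusted p under 0.05. Of 81 pairs of groups and members 2 did not overlap in CPM. Comparisons share libraries, so these counts are not independent.

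The rest of the pathway was read from a list of 92 other genes, of which 91 were found and 77 to 80 were tested in a comparison. In the first fit of each comparison edgeR called none of them. Some alternative fits did call pathway genes, as given below. In the genotype comparisons, those with an unadjusted p under 0.05 numbered 4 of 77 untreated, 8 of 79 under hydralazine and 4 of 79 over both, where 3.04%, 4.64% and 3.70% of all genes had one. Adra1a, an alpha-adrenergic receptor, averaged 12.2 ± 4.55 CPM in VEDS untreated, against 6.52 ± 1.5 CPM in control untreated aortas (SD, n = 6 each; log2 fold change 0.90 ± 0.24, adjusted p = 1.00). Spred2, an inhibitor of Ras-ERK signalling, had −0.38 ± 0.13 in the untreated comparison and −0.26 ± 0.08 over both treatments (adjusted p = 1.00 in each). Ccnd1, which encodes the ERK target cyclin D1, had 0.48 ± 0.18 under hydralazine (adjusted p = 0.923) and 0.37 ± 0.13 over both (adjusted p = 1.00). Under hydralazine, Sos1, a Ras exchange factor, had 0.13 ± 0.04 and Plce1, another PLC, −0.26 ± 0.09 (adjusted p = 0.923 each). Hydralazine in VEDS mice left 1 of 78 pathway genes with an unadjusted p under 0.05 (4.53% of all genes), the thromboxane receptor Tbxa2r, at 0.40 ± 0.14 (adjusted p = 1.00). In control mice there were 5 of 77 (9.50% of all genes), led by Sos1 at −0.16 ± 0.06 (adjusted p = 0.517) and by the diacylglycerol kinase genes Dgkq and Dgkd at 0.24 ± 0.10 and 0.18 ± 0.08 (adjusted p = 0.520 each). In the interaction there were 6 of 79 (3.28% of all genes), among them Sos1, Dgkq and Adra1a. The 4 brown adipocyte markers were all higher in VEDS untreated than in control untreated aortas, with a median of 0.69. In the interaction they were all below 0, with a median of −0.97. None was called, and their part in the Adra1a values was not tested.

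The antagonist groups gave the smallest adjusted p-values of the list. HB against hydralazine had 15 of 80 pathway genes with an unadjusted p under 0.05, a share near the 15.5% of all genes, of which 11 were higher and 4 lower in HB. Ier3, an ERK-induced gene, averaged 25.1 ± 5.0 CPM in VEDS HB (n = 3), against 11.9 ± 2.0 CPM in VEDS hydralazine aortas (n = 6), a log2 fold change of 1.07 ± 0.16 (adjusted p = 0.0883). Avpr1a, a vasopressin receptor gene, averaged 1.00 ± 0.28 CPM in VEDS HB, against 4.18 ± 1.46 CPM in VEDS hydralazine aortas (−2.06 ± 0.37, adjusted p = 0.0941). The 4 hepatocyte markers were also all lower in HB, with a median of −2.67 here and −2.48 against untreated VEDS aortas. Their part in the Avpr1a values was not tested. Prkci averaged 64.3 ± 1.2 CPM in VEDS HB, against 50.9 ± 2.3 CPM in VEDS hydralazine aortas (0.33 ± 0.06, adjusted p = 0.0941). DESeq2 called Ier3, Avpr1a and Prkci with Agtr1a and Itpkb, 5 pathway genes in all, in this comparison. edgeR called Ier3 once VEDS hydralazine replicate 4 was left out (adjusted p = 0.0400) or replicate 6 (adjusted p = 0.0127), within a range of 1.38e-05 to 0.276 over the alternatives.

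HS against hydralazine had 12 of 80 with an unadjusted p under 0.05 (13.6% of all genes), of which Agtr1a, the angiotensin II receptor, Prkci and Ier3 had the smallest, at −1.08 ± 0.30, 0.26 ± 0.07 and 0.98 ± 0.27 (adjusted p = 0.332 each), and DESeq2 called 1, Rgs16. Without VEDS HS replicate 3 the Ier3 value was 0.41 ± 0.17. Agtr1a lay between −1.09 and −0.49 over 7 alternative fits other than the omission of single libraries. The 4 hepatocyte markers were also all lower in HS than in VEDS hydralazine aortas, with a median of −2.36. Their part in the Agtr1a value was not tested. HB against untreated had 17 of 80 (16.4% of all genes), led by Ier3 (1.11 ± 0.21, adjusted p = 0.0610), Avpr1a (−2.47 ± 0.50, adjusted p = 0.0658) and Adra1a (−1.51 ± 0.32, adjusted p = 0.0747), and DESeq2 called these 3 and Tbxa2r. Without VEDS untreated replicate 1, edgeR called 5 pathway genes, among them Ier3 (adjusted p = 0.00618, within a range of 0.000397 to 0.204 over the alternatives), Avpr1a and Adra1a. HS against untreated had 8 of 80 (11.1% of all genes), led by Gnaq, the G protein subunit that activates PLC-beta, at 0.24 ± 0.06 (adjusted p = 0.163, within a range of 0.0299 to 0.501 over the alternatives), Rgs5 and Ier3. The log2 fold change of Ier3 there lay between 0.44 and 1.22 when 1 library was left out. HS against HB had 8 of 78 (6.68% of all genes), of which 1 was higher and 7 were lower in HS, led by Tbxa2r at −0.52 ± 0.13 (adjusted p = 0.584), Dgkg and Avpr1a. The age difference named above applies to each of these comparisons but the last.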

How the data were processed

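Total RNA of 30 descending thoracic aortas was sequenced by the authors as stranded TruSeq libraries on a NovaSeq instrument, with base calls from CASAVA 1.8.4. The authors quantified genes with RSEM on mm39, and the deposited files hold expected counts and TPM for each gene. Of the expected counts 97.6% were whole within 1e-06, and all were rounded for tests. Library totals were 5517510 to 8293289, which limits precision mainly for Prkcb.

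For every comparison the libraries involved were fitted alone with edgeR 4.0.16 in R 4.3.3 (TMM, default expression filter, quasi-likelihood F-test, Benjamini-Hochberg adjustment over all genes tested). Standard errors and 95% intervals come from the F statistic. Adjusted p-values of 0.05 or less counted as calls. CPM were scaled with TMM factors over all 30 libraries, and TPM was used for levels between genes. Likeness was Pearson's r of log2(CPM + 1) among genes with a mean of at least 5 CPM. DESeq2 1.42.0, sva 3.50.0, other filters and size factors, a fit of all libraries and the omission of each library were alternatives.

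Members and lists were chosen with earlier results of these data known. Genes were named by rule: all members, pathway genes called or, with none called, up to 3 of smallest p a comparison, and the 3 genes most like each member. No 2 libraries of a group agreed within sampling noise (mean chi-square of 2.79 or more per gene). Age and extraction batch are not labelled by library and entered no model.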

Additional observations from a re-analysis of the deposited data

Results flagged for a closer look

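Levels of each member were screened within the 4 groups of 6 libraries, 36 sets in all, for a library far from the other 5, and chance alone marks about 1 set in 20. There were 2. Plcb3 stood at 81.4 CPM in VEDS untreated replicate 1, where the other libraries of the group ran from 59.9 to 66.7 CPM. Mapk3 stood at 43.8 CPM in control hydralazine replicate 2, where the others ran from 35.0 to 37.9 CPM. Without that library the log2 difference of Mapk3 between control hydralazine and control untreated aortas was 0.20 ± 0.07 (edgeR adjusted p = 0.756, the highest of the alternatives, whose lowest was 0.199). In CPM the other 5 values were above all 6 untreated values.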

How the results depend on the processing

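In 213 further fits, 138 of them leaving out 1 library, the number of members called was 0 in every comparison, with a smallest adjusted p of 0.0881 for Plcb3 in HB against untreated aortas without VEDS untreated replicate 1. Of 55 differences of members and pathway genes named above, 49 kept their direction in every fit. With 1 surrogate variable, Plcb4 (−0.10) and Itpr1 (−0.16) turned in HS against hydralazine, Plcb4 (0.049) and Itpr1 (0.00095) turned in VEDS against control under hydralazine, and Plcb4 (−0.053) turned in HS against HB. Leaving out 1 library, Mapk3 in VEDS against control under hydralazine ranged between −0.019 (without VEDS hydralazine replicate 6) and 0.083, and Plcb4 in HS against HB between −0.13 (without VEDS HS replicate 3) and 0.14. Plcb4 there was also −0.13 without the 3 libraries named next. Leaving out 1 library moved the Mapk3 difference of control hydralazine between 0.20 and 0.30 (adjusted p 0.199 to 0.756) and the Plcb3 difference of HS against HB between −0.32 and −0.23 (adjusted p 0.525 to 0.992). Over all 1917 member values of these fits, 129 changed sign.

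Pathway genes called numbered 0 in the first fits, and in HB against untreated 4 by DESeq2, 3 in a single fit of all libraries, 4 with the surrogate variable and 5 without VEDS untreated replicate 1. They numbered 5 by DESeq2 and 1 with the surrogate variable in HB against hydralazine, 1 by DESeq2 in HS against hydralazine and 2 in the single fit in HS against untreated. Counts over all genes moved far more. For HB against hydralazine edgeR called 2 genes, DESeq2 574, the fit with 1 surrogate variable 88, the single fit of all libraries 1, and 1 was left after leaving out 3 libraries that stood apart (VEDS HB replicate 2, VEDS HS replicate 3 and control hydralazine replicate 5), an alternative chosen after seeing the data. For HB against untreated, the counts were 54 by edgeR, 556 by DESeq2, 253 with the surrogate variable and 2 without those libraries, and for HS against untreated they were 41, 282, 70 and 1, with 141 in a single fit of all libraries. HS against hydralazine had 0 by edgeR, 52 by DESeq2, 6 with the surrogate variable and 2 in the single fit, and HS against HB had 0, 34 and 9, and 1 without those libraries. Leaving out 1 library gave 1 to 56, 2 to 529 and 0 to 104 genes for HB against hydralazine, HB against untreated and HS against untreated. The genotype, hydralazine and interaction comparisons had 0 to 7 in every fit. The cause was not tested. Library totals in place of TMM moved 1 of 54 group means by more than its SD. Removing group means moved 13 of 36 member correlations by over 0.1. No paired analysis was possible because the labels give no replicate numbers that tie libraries of different groups. Depth limits Prkcb most, and 3 libraries in HB and HS limit their intervals.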
